A study of Caenorhabditis elegans with 32 samples.

Results

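Innexins are the proteins from which invertebrate gap junctions are built, and the RNA of 10 innexin genes of Caenorhabditis elegans was followed here: unc-7, unc-9, inx-2, inx-3, inx-7, inx-10, inx-12, inx-13, inx-14 and inx-19. The genes were taken by name, and all 10 were found in a count table of 46726 genes that lists 25 innexins. An innexin channel in the membrane of a cell docks with a channel of a neighbouring cell, and ions and small molecules then pass directly between the cells. In C. elegans such junctions couple neurons into circuits, join the cells of muscle and epidermis, and connect germ cells with the gonadal sheath. URX, a main O2-sensing neuron, is coupled by gap junctions to the hub interneuron RMG, a circuit that npr-1 regulates.

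The 32 RNA-seq libraries fell into 8 groups of 4 biological replicates, one for every combination of sample type, adult age and rearing O2. Every worm was an adult hermaphrodite of strain KL123. All groups thus share ad609, a loss-of-function allele of the X-linked neuropeptide receptor gene npr-1, and the integrated transgene iaIs25, in which the promoter of the guanylate cyclase gene gcy-37 drives GFP (Pgcy-37::GFP) alongside an unc-119(+) marker. The worms were kept at 21% or 7% O2 and collected on day 1 or day 7 of adulthood. All of them, in every group, received mex-3 RNAi through their bacterial food from the L3 stage, and worms taken on day 7 were moved from that food to OP50 bacteria after day 4. A neuron sample is the GFP-positive cells sorted from many dissociated worms. That GFP is strong in URX, AQR and PQR and weak in AVM and ASI, so the sorted cells are not of 1 type. A whole-worm sample is unsorted material from the dissociated suspension. In such bulk samples fewer cells of a type and less RNA per cell cannot be told apart.

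Total counts ran from 5365596 to 30666288 per library. Levels are given as CPM, counts scaled to the library's size after TMM normalisation over all 32 libraries. The sorted libraries were enriched for their label, with gcy-37 at 204 to 2224 CPM in neurons and 1.89 to 16.3 CPM in whole worms. AVM is a touch neuron, and 7 summed touch neuron markers had medians of 8790 and 9229 CPM in day 1 neurons at 21% and 7% O2. The sums of 8 O2-sensing markers had medians of 7519 and 6311 CPM there, and those of 4 ASI markers 2650 and 3809 CPM. Which of these cells held the innexin RNAs was not tested. mex-3, the target of the RNAi food, was still counted in every library, at 14.2 to 310 CPM in neurons and 3.16 to 154 CPM in whole worms. Replicates were less alike in neurons than in whole worms. A library's mean correlation with the others of its group was 0.742 to 0.893 in neurons and 0.931 to 0.964 in whole worms. The sorted libraries least like their own groups were replicate 1 of day 1 at 7% O2, with a mean correlation of 0.750, and replicate 4 of day 7 at 21% O2, with 0.742. The first had the highest summed body wall muscle markers among its group, 7399 CPM against a group median of 1635 CPM, and the second the highest summed germline markers, 1179 CPM against 244 CPM. A single gene, F31C3.14, took 5.33% to 53.8% of a library's counts. Leaving out both of those libraries left every call of unc-7, unc-9, inx-12 and inx-13 described here in place.

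Of the 10 genes, unc-7, unc-9, inx-2 and inx-3 lie on chromosome X, inx-12, inx-13, inx-14 and inx-19 on chromosome I, inx-7 on IV and inx-10 on V, in assembly WBcel235. The annotation gives each of them as protein coding. inx-13 (WBGene00002135), on the minus strand, spans chrI:3748523-3753958. Its neighbour inx-12 (WBGene00002134), on the same strand, spans chrI:3755488-3759039. The annotation shows no gene in the 1529 bases between them. unc-9 (WBGene00006749), on the plus strand, spans chrX:13201770-13216729. unc-7 (WBGene00006747), on the minus strand, spans chrX:15120846-15147740 and has 11 annotated transcripts. Reads were counted without strand information, so where exons of genes overlap their reads cannot be assigned to a strand. Exon overlap with other genes was 4.95% of exonic bases for inx-14 (with kbrl-1), 4.6% for unc-7, 3.23% for inx-10 (with asp-2) and under 1% for the others.

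**Figure D1:**
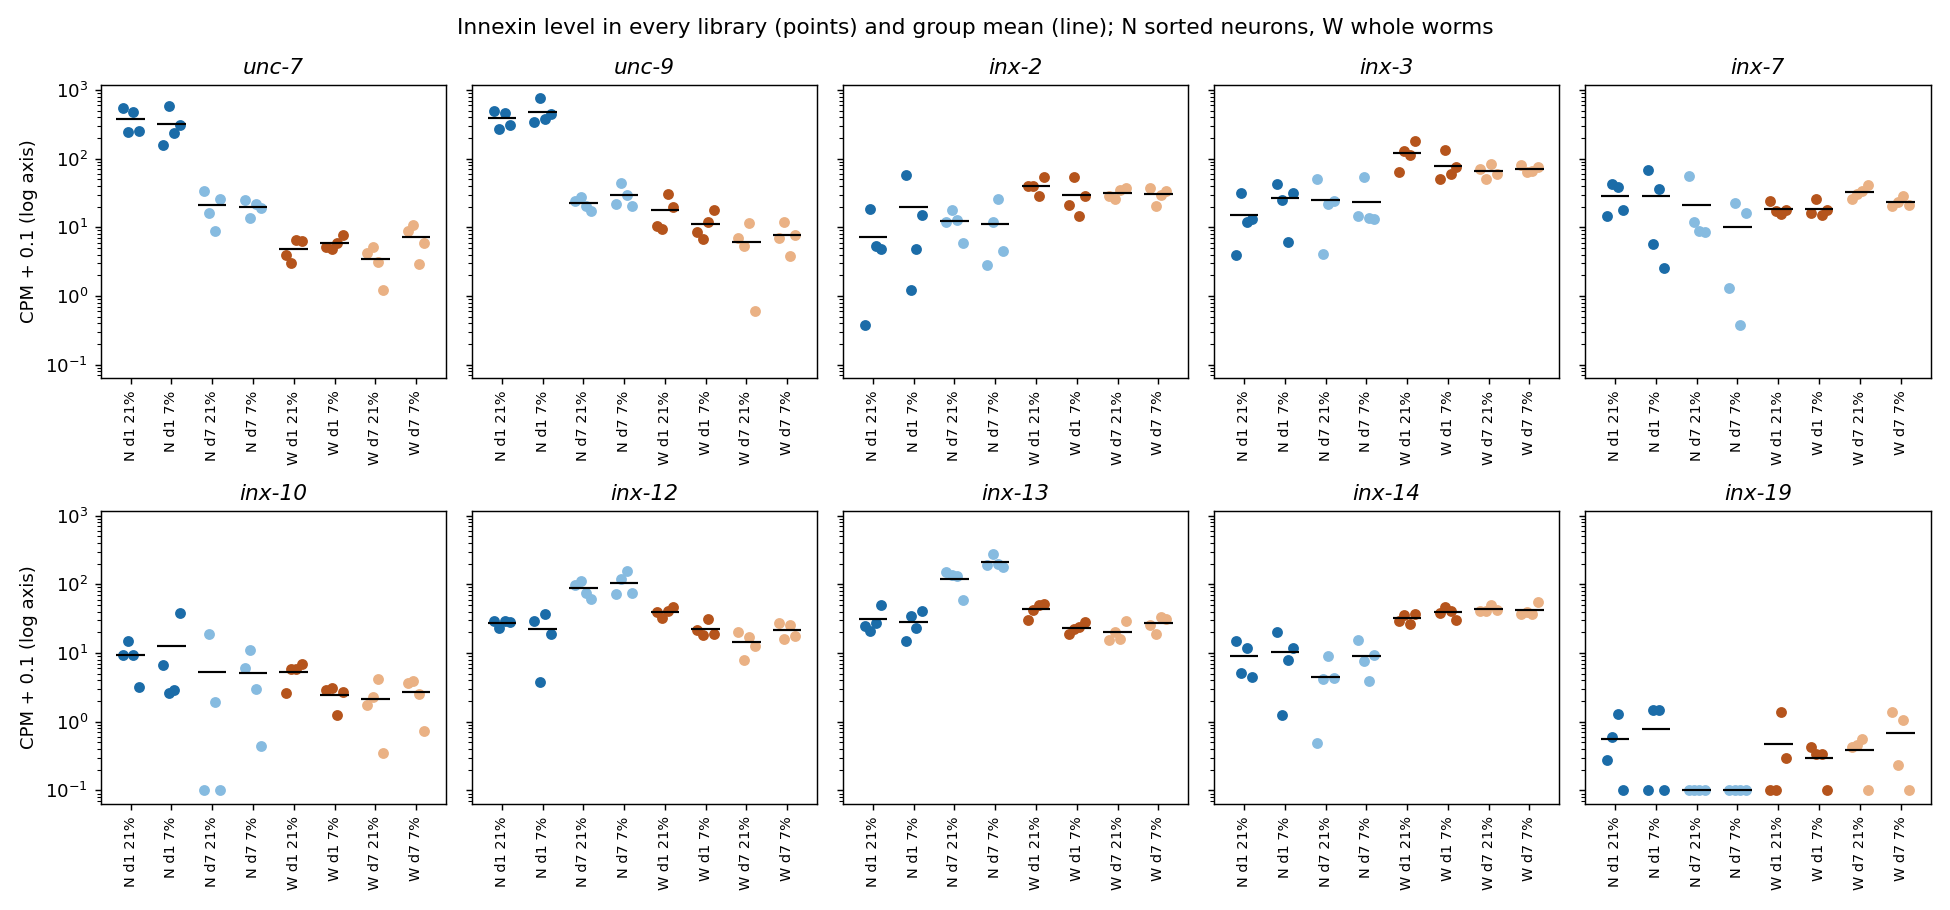
CPM + 0.1 on a log axis for each of the 10 innexin genes, with 1 point per library, 4 libraries per group and a line at the group mean, by sample type, age and O2. unc-7 and unc-9 stood highest in day 1 neurons, inx-12 and inx-13 in day 7 neurons, and inx-19 was at 0 in all 8 libraries of day 7 neurons.

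The order of the genes within a group is given per kb of exonic sequence, since counts also grow with transcript length. In neurons of day 1 worms unc-9 stood first, at 176 ± 51.0 CPM per kb at 21% O2 and 218 ± 86.5 at 7% O2 (mean ± SD, n = 4). unc-7 stood second, at 103 ± 41.4 and 86.1 ± 48.8 CPM per kb, and its libraries overlapped with those of unc-9 at 21% O2 and not at 7% O2. The remaining genes of these groups stood at 21.4 CPM per kb or lower. In neurons of day 7 worms the order had changed. inx-13 stood first, at 82.6 ± 28.1 CPM per kb at 21% O2 and 147 ± 30.4 at 7% O2, and inx-12 second, at 62.6 ± 16.4 and 75.9 ± 29.0. The libraries of inx-13 and inx-12 overlapped at 21% O2 and not at 7% O2, and inx-12 did not overlap with the gene after it, inx-3, in either group. From inx-3 to inx-10 in day 7 neurons, neighbours in the order overlapped. In whole worms inx-3, an innexin found in many tissues, stood first in all 4 groups, from 40.3 ± 8.91 CPM per kb on day 7 at 21% O2 to 74.5 ± 30.0 on day 1 at 21% O2. It overlapped with the next gene only on day 7 at 21% O2, where that gene was inx-14. inx-19 stood last in every group.

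The comparison of sorted neurons with whole worms of the same age and O2 asks which innexin RNAs are enriched in the sorted cells. A gene was called higher or lower where edgeR's quasi-likelihood test gave a Benjamini-Hochberg adjusted p under 0.1 over all tested genes and the change was at least 1.5-fold. inx-19 had too few counts to be tested, so 9 of the 10 genes were tested in each comparison. On day 1 at 21% O2, 2 were called higher in neurons and 3 lower, beside 30.0% and 22.8% of all genes tested. On day 1 at 7% O2 it was 3 higher and 2 lower, beside 26.8% and 19.5%. On day 7 it was 4 higher and 3 lower at each O2, beside 23.5% and 16.8% at 21% O2 and 24.7% and 21.1% at 7% O2.

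unc-7 and unc-9 are the innexins whose mutants were isolated for their uncoordinated movement, and both are widely used by neurons of the locomotion circuit. In day 1 neurons at 21% O2 unc-7 was at 541, 241, 477 and 255 CPM in replicates 1 to 4. At 7% O2 the day 1 neurons had 160, 574, 234 and 304 CPM. Across the 16 whole-worm libraries its lowest value was 1.13 CPM and its highest 10.8 CPM, so that no whole-worm library reached the level of any day 1 neuron library. unc-7 was 86.9-fold higher in neurons than in whole worms on day 1 at 21% O2 (log2 6.44 ± 0.41 (SE), edgeR adjusted p = 4.06e-07). It was 58.0-fold higher at 7% O2 (log2 5.86 ± 0.46, edgeR adjusted p = 8.23e-06).

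unc-9 was at 500, 274, 459 and 306 CPM in day 1 neurons at 21% O2, and at 345, 756, 371 and 440 CPM at 7% O2. In whole worms it ran from 0.503 to 30.6 CPM over the 16 libraries. The groups again did not overlap. unc-9 was 24.3-fold higher in day 1 neurons at 21% O2 (log2 4.61 ± 0.42, edgeR adjusted p = 4.98e-06) and 45.3-fold higher at 7% O2 (log2 5.50 ± 0.43, edgeR adjusted p = 7.66e-06). unc-9 is also known from body wall muscle, a tissue that whole-worm samples hold.

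On day 7 the lead of the neurons over whole worms in these genes was still called but smaller. unc-7 was at 33.4, 16, 8.88 and 25.3 CPM in day 7 neurons at 21% O2, and at 25.1, 13.3, 21.8 and 19 CPM at 7% O2. unc-9 was at 24.3, 27.9, 20.1 and 17 CPM at 21% O2, and at 22.1, 44.2, 29.7 and 20.4 CPM at 7% O2. Neuron and whole-worm libraries of day 7 did not overlap for either gene at either O2. unc-7 was higher in neurons by 2.66 ± 0.68 on the log2 scale at 21% O2 (edgeR adjusted p = 0.0124) and by 1.46 ± 0.52 at 7% O2 (edgeR adjusted p = 0.0452). unc-9 was higher by 1.91 ± 0.75 at 21% O2 (edgeR adjusted p = 0.0748) and by 1.92 ± 0.48 at 7% O2 (edgeR adjusted p = 0.00797). Of these, the call of unc-9 at 21% O2 was lost without whole-worm replicate 1 or 2 (adjusted p = 0.146 and 0.159) or neuron replicate 1 or 2 (0.116 and 0.137), and that of unc-7 at 7% O2 without whole-worm replicate 3 or 4 (0.128 and 0.114).

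Compared directly, day 7 against day 1 in sorted neurons, 2 of the 9 tested genes were called lower and 2 higher at 21% O2, beside 18% and 12.1% of all genes tested. The counts at 7% O2 were again 2 lower and 2 higher, beside 21.0% and 15.4%. unc-7 and unc-9 were the genes that fell at each O2, and inx-12 and inx-13 those that rose. The lowest day 1 library of unc-7, at 160 CPM, was above its highest day 7 library, at 33.4 CPM. unc-7 was 17.9-fold lower on day 7 at 21% O2 (log2 -4.16 ± 0.49, edgeR adjusted p = 4.54e-06) and 16-fold lower at 7% O2 (log2 -4.0 ± 0.48, edgeR adjusted p = 3.63e-06). The lowest day 1 library of unc-9, at 274 CPM, was likewise above its highest day 7 library, at 44.2 CPM. unc-9 was 17-fold lower at 21% O2 (log2 -4.09 ± 0.38, edgeR adjusted p = 4.37e-07) and 16.4-fold lower at 7% O2 (log2 -4.03 ± 0.37, edgeR adjusted p = 2.64e-07). The median log2 change of all genes tested was itself -0.20 at 21% O2 and -0.28 at 7% O2, so relative to it the falls are slightly smaller.

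**Figure D2:**
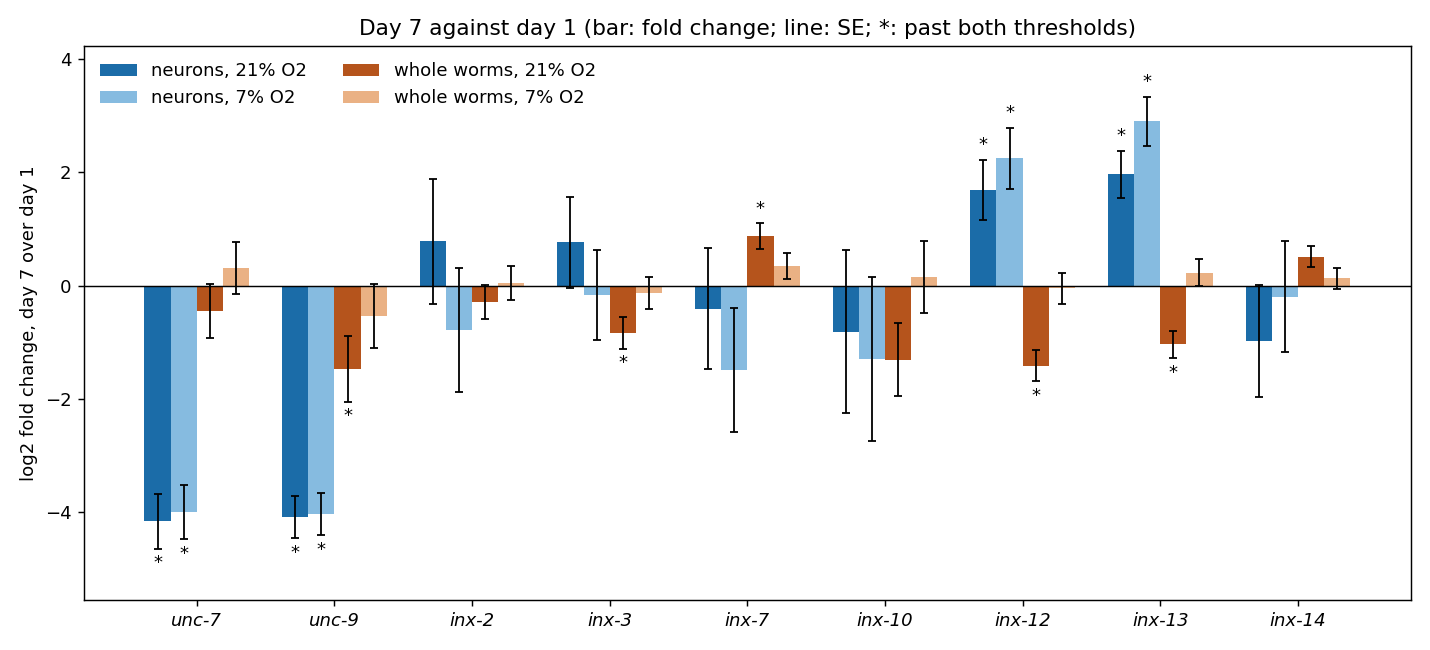
log2 fold change of day 7 over day 1 for the 9 tested innexin genes in sorted neurons and in whole worms at 21% and 7% O2. Bars are edgeR estimates, lines their standard errors and stars mark genes past both thresholds. The falls of unc-7 and unc-9 in neurons, near -4 on the log2 scale, were the largest changes with age among these genes, and inx-12 and inx-13 rose in neurons while falling in whole worms at 21% O2.

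Markers of neurons in general fell in the same libraries. All 8 pan-neuronal markers examined (egl-3, egl-21, ida-1, rab-3, sbt-1, snt-1, unc-31 and unc-64) fell with age in sorted neurons, with a median log2 change of -2.91 at 21% O2, and so did all 8 markers of O2-sensing neurons, with a median of -4.31. All 7 touch neuron markers fell at each O2 as well, with medians of -3.13 at 21% O2 and -4.12 at 7% O2. Of 4 ASI markers, daf-7, daf-28 and gpa-4 fell at each O2. The summed pan-neuronal markers were at 24435 to 40880 CPM in day 1 neurons at 21% O2 and at 2083 to 6028 CPM in day 7 neurons. At 7% O2 they were at 18476 to 34909 CPM and 1732 to 2866 CPM. The levels of unc-7 and unc-9 were therefore also set against that sum within each library. Per 1000 CPM of those markers, unc-7 stood at 8.15 to 16.4 CPM on day 1 and 2.03 to 12.1 CPM on day 7 at 21% O2. Its range at 7% O2 was 7.41 to 16.4 CPM on day 1 and 5.75 to 11 CPM on day 7. These ranges overlapped at each O2. The log2 ratio of unc-7 differed by -1.2 at 21% O2 (exact two-sided permutation test, n = 4 per group, p = 0.114, adjusted over 4 tests 0.152) and by -0.52 at 7% O2 (exact permutation p = 0.171, adjusted 0.171).

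unc-9 per 1000 CPM of those markers stood at 9.76 to 15.2 CPM on day 1 and 4.03 to 8.18 CPM on day 7 at 21% O2, with no overlap. At 7% O2 it stood at 16 to 21.6 CPM on day 1 and 7.70 to 19.1 CPM on day 7, with overlap. Its log2 ratio differed by -1.03 at 21% O2 (exact permutation p = 0.0286, the smallest that 4 against 4 libraries can give, adjusted 0.114) and by -0.67 at 7% O2 (exact permutation p = 0.0571, adjusted 0.114). After adjustment none of the 4 ratios passed 0.1, which a single fully separated ratio among the 4 tests could not do with these numbers of libraries. Each mean log2 ratio was lower on day 7. The ratios describe the level against these 8 markers only. Markers of O2-sensing neurons, with median log2 changes of -4.31 at 21% O2 and -4.90 at 7% O2, were not used for a ratio. The part of the neuronal markers' fall in the fall of unc-7 and unc-9 was not tested.

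**Figure D3:**
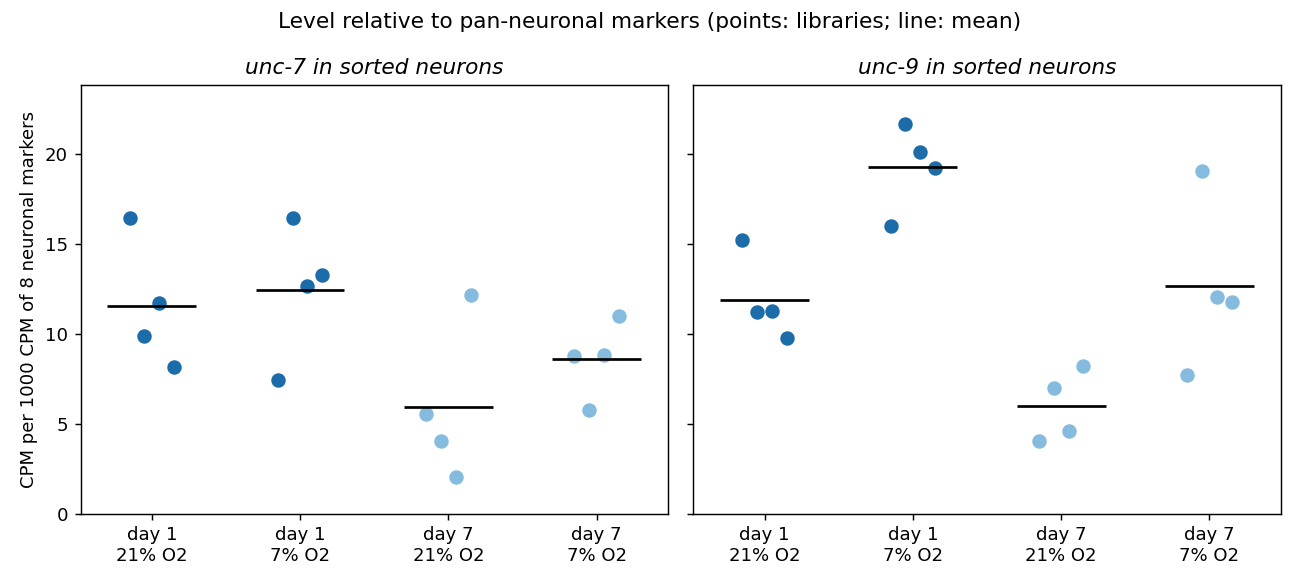
CPM of unc-7 and unc-9 per 1000 CPM of 8 summed pan-neuronal markers in sorted neurons, by age and O2. Points are libraries, lines the means of 4 libraries. Of the 4 comparisons, unc-9 at 21% O2 is the one whose day 1 and day 7 libraries did not overlap, at 9.76 to 15.2 against 4.03 to 8.18.

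The change with age of unc-7 and unc-9 was more negative in neurons than in whole worms. In whole worms unc-7 was not called, with log2 changes of -0.45 ± 0.47 at 21% O2 (edgeR adjusted p = 0.569) and 0.31 ± 0.46 at 7% O2 (edgeR adjusted p = 0.744). A test of that difference over all 32 libraries, sample type by age, called 2 of 9 genes more negative in neurons and 2 more positive at 21% O2, beside 10.9% and 10.6% of all genes tested. At 7% O2 it was also 2 and 2, beside 15.7% and 13.9%. For unc-7 the difference between the log2 changes was -3.66 ± 0.64 at 21% O2 (edgeR adjusted p = 0.000121) and -4.30 ± 0.64 at 7% O2 (edgeR adjusted p = 6.55e-06). For unc-9 it was -2.57 ± 0.69 at 21% O2 (edgeR adjusted p = 0.00879) and -3.48 ± 0.69 at 7% O2 (edgeR adjusted p = 0.000341). The same test called all 8 pan-neuronal markers more negative in neurons at each O2, with median differences of -2.61 and -3.35. Of 8 O2-sensing markers it called 7 at 21% O2 and 8 at 7% O2, with medians of -4.22 and -5.53. Of 7 touch neuron markers it called 3 and 6.

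inx-19, also named nsy-5, is known from the embryonic network of neurons in which the AWC olfactory neurons become unlike on the left and the right. It had the fewest counts of the 10 genes, and no library exceeded 1.39 CPM. In day 1 neurons it had 41 counts over 3 of 4 libraries at 21% O2 and 31 counts over 2 of 4 libraries at 7% O2. In day 7 neurons it had 0 counts in all 8 libraries. A floor of 3 counts over a group stands at 0.0783 CPM for day 7 neurons at 21% O2 and 0.0548 CPM at 7% O2. The day 1 level over the group, 0.655 CPM at 21% O2 and 0.688 CPM at 7% O2, was at least 8.36-fold and at least 12.6-fold higher than these floors. These are few counts, uneven between replicates. Most came from 1 library at each O2, with 31 of the counts at 21% O2 in replicate 3 and 21 of those at 7% O2 in replicate 2. Without those libraries the day 1 level was at least 3.50-fold and at least 6.14-fold higher than the floors. inx-19 did not pass the low-count filter in the fits over all libraries and so was not tested there. In whole worms it had 14 and 9 counts over the day 1 groups at 21% and 7% O2, and 8 and 18 over the day 7 groups.

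inx-12 and inx-13 are known from the excretory canal cell and the epidermis, where they are needed for normal fluid balance of the larva. In day 1 neurons inx-12 was at 29.0, 22.8, 28.8 and 28.4 CPM at 21% O2 and at 29.3, 3.71, 37.5 and 18.7 CPM at 7% O2. In day 7 neurons it was at 98.9, 112, 75.4 and 61.5 CPM at 21% O2 and at 72.2, 119, 156 and 73.9 CPM at 7% O2. Every day 7 neuron library was above every day 1 neuron library. inx-12 was 3.23-fold higher on day 7 at 21% O2 (log2 1.69 ± 0.53, edgeR adjusted p = 0.0242) and 4.74-fold higher at 7% O2 (log2 2.25 ± 0.53, edgeR adjusted p = 0.00344).

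inx-13 moved the same way. It was at 24.6, 21.1, 26.9 and 50.6 CPM in day 1 neurons at 21% O2 and at 14.9, 34.4, 23.3 and 41.1 CPM at 7% O2. In day 7 neurons it was at 149, 136, 132 and 59.1 CPM at 21% O2 and at 190, 276, 200 and 181 CPM at 7% O2. The age groups did not overlap. Its lowest day 7 value, 59.1 CPM, came from replicate 4 at 21% O2, the library least like its group. inx-13 was 3.90-fold higher on day 7 at 21% O2 (log2 1.96 ± 0.42, edgeR adjusted p = 0.00179) and 7.46-fold higher at 7% O2 (log2 2.90 ± 0.43, edgeR adjusted p = 4.1e-05).

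Whole worms did not show these rises. inx-12 was at 31.9 to 46.2 CPM in day 1 whole worms at 21% O2 and at 7.85 to 19.8 CPM on day 7, and it was 2.66-fold lower (log2 -1.41 ± 0.27, edgeR adjusted p = 0.00122). inx-13 was at 30.5 to 51.0 CPM and then 15.2 to 29.7 CPM, and was 2.06-fold lower (log2 -1.04 ± 0.24, edgeR adjusted p = 0.00545). At 7% O2 neither was called, with log2 changes of -0.05 ± 0.27 for inx-12 and 0.23 ± 0.24 for inx-13. The difference between the log2 changes of neurons and whole worms was 3.1 ± 0.62 for inx-12 at 21% O2 (edgeR adjusted p = 0.00049) and 2.30 ± 0.61 at 7% O2 (edgeR adjusted p = 0.00642). For inx-13 it was 3.05 ± 0.49 at 21% O2 (edgeR adjusted p = 4.43e-05) and 2.68 ± 0.49 at 7% O2 (edgeR adjusted p = 0.000128).

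Between sample types the same genes were not called on day 1 and were higher in sorted neurons on day 7. On day 1 the log2 difference of inx-12 was -0.39 ± 0.29 at 21% O2 and 0.09 ± 0.65 at 7% O2. That of inx-13 was -0.33 ± 0.37 at 21% O2 and 0.37 ± 0.46 at 7% O2. Without neuron replicate 4, inx-13 was called lower in neurons at 21% O2 (log2 -0.81, edgeR adjusted p = 0.0653). On day 7 inx-12 was higher in neurons by 2.63 ± 0.38 at 21% O2 (edgeR adjusted p = 0.000537) and by 2.27 ± 0.34 at 7% O2 (edgeR adjusted p = 0.000311). inx-13 was higher by 2.57 ± 0.37 at 21% O2 (edgeR adjusted p = 0.000536) and by 2.95 ± 0.25 at 7% O2 (edgeR adjusted p = 4.78e-06).

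**Figure D4:**
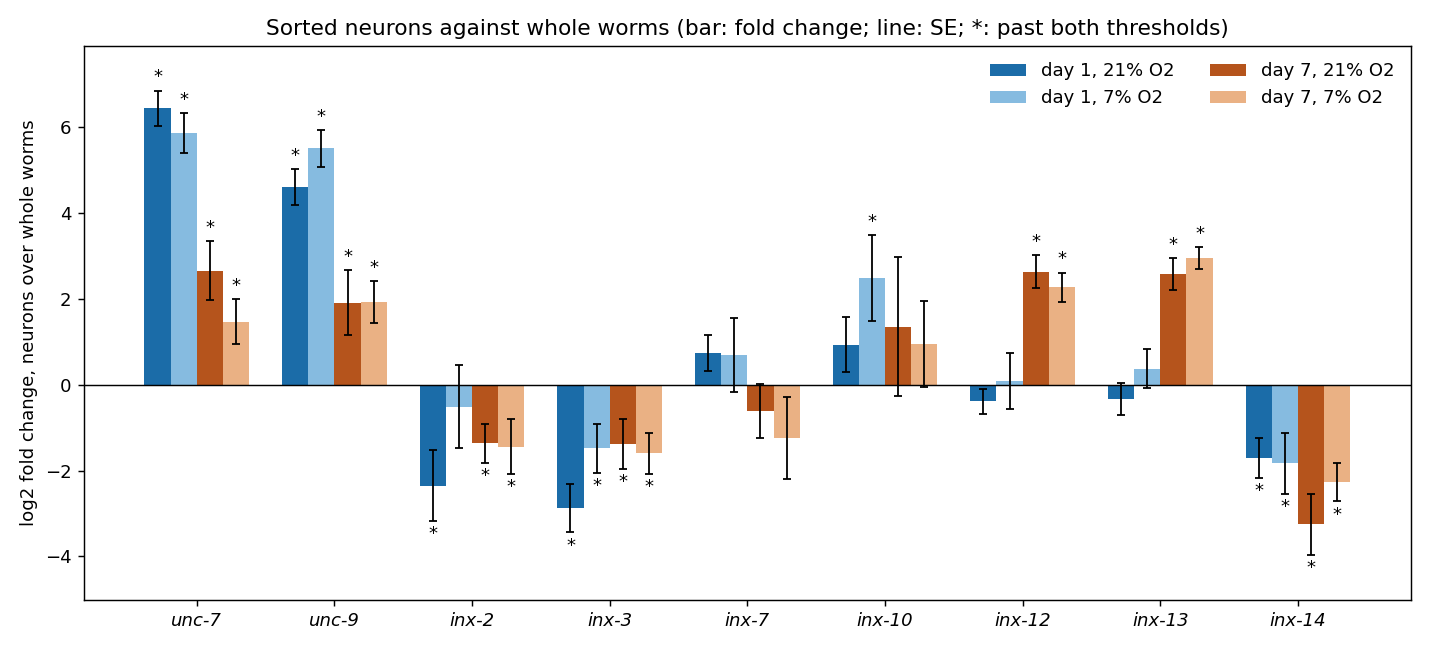
log2 fold change of sorted neurons over whole worms for the 9 tested innexin genes at each age and O2. Bars are edgeR estimates, lines their standard errors and stars mark genes past both thresholds. unc-7 and unc-9 were higher in neurons in all 4 comparisons and less so on day 7, and inx-12 and inx-13 were higher on day 7 only, by 2.27 to 2.95.

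Some markers of other tissues rose with age in neurons beside inx-12 and inx-13, and others fell. Of 10 epidermal markers, 5 were tested in neurons. dpy-7, sqt-3 and wrt-10 rose with age at each O2, while col-19 and pah-1 fell. In the test of sample type by age, dpy-7, sqt-3 and wrt-10 were called more positive in neurons at each O2, and pah-1 more negative. There col-19 was called more positive at 21% O2 and more negative at 7% O2. The summed epidermal markers were at 108 to 320 CPM in day 1 neurons at 21% O2 and at 316 to 445 CPM on day 7, and at 194 to 265 CPM and 455 to 601 CPM at 7% O2. Their sums in whole worms moved the other way, from 249 to 393 CPM on day 1 at 21% O2 to 42.9 to 98.8 CPM on day 7. At 7% O2 these whole-worm sums went from 147 to 302 CPM on day 1 to 43.5 to 111 CPM on day 7. Neither inx-12 nor inx-13 was called with age in whole worms at 7% O2. bli-1 was at 0 in both groups of day 7 neurons and bli-2 in that of 21% O2. Of 4 excretory canal markers, exc-4 rose with age (log2 4.36 at 21% O2, 6.68 at 7% O2), pgp-12 rose by 6.61 at 21% O2 and did not pass the test at 7% O2 (log2 3.37), and exc-9 fell at 7% O2. The summed canal markers were at 8.36 to 27.5 CPM in day 1 neurons at 21% O2 and 54.3 to 124 CPM on day 7, and at 12.8 to 110 CPM and 109 to 138 CPM at 7% O2. Of 7 intestinal markers, 6 were tested in neurons. vit-2 and vit-6, which encode yolk proteins, rose with age at each O2, and asp-1 fell at 21% O2. The median log2 change of the 6 was -0.08 at 21% O2 and 1.79 at 7% O2. The summed intestinal markers were at 924 to 2445 CPM in day 1 neurons at 21% O2 and 4524 to 10978 CPM on day 7, and at 516 to 3474 CPM and 5947 to 7283 CPM at 7% O2. In whole worms the sums were at 12861 to 40977 CPM over the 4 groups. ges-1 was called higher with age in neurons at 7% O2. It was at 0 in day 1 neurons of 7% O2, so nothing is read from that call. Body wall muscle markers went the other way. None of the 7 rose and 3 (pat-10, unc-27 and unc-54) fell at each O2, with a median log2 change of -1.67 at 21% O2 and -1.31 at 7% O2. Of the markers of the somatic gonad, ceh-18 fell at each O2 and lim-7 at 7% O2. The glial marker ptr-10 rose at each O2, and kcc-3 of glia, tnc-2 of the pharynx and gld-1 of the germ line fell at 7% O2. The part of epidermal, canal and intestinal RNA in the rise of inx-12 and inx-13 was not tested.

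**Figure D5:**
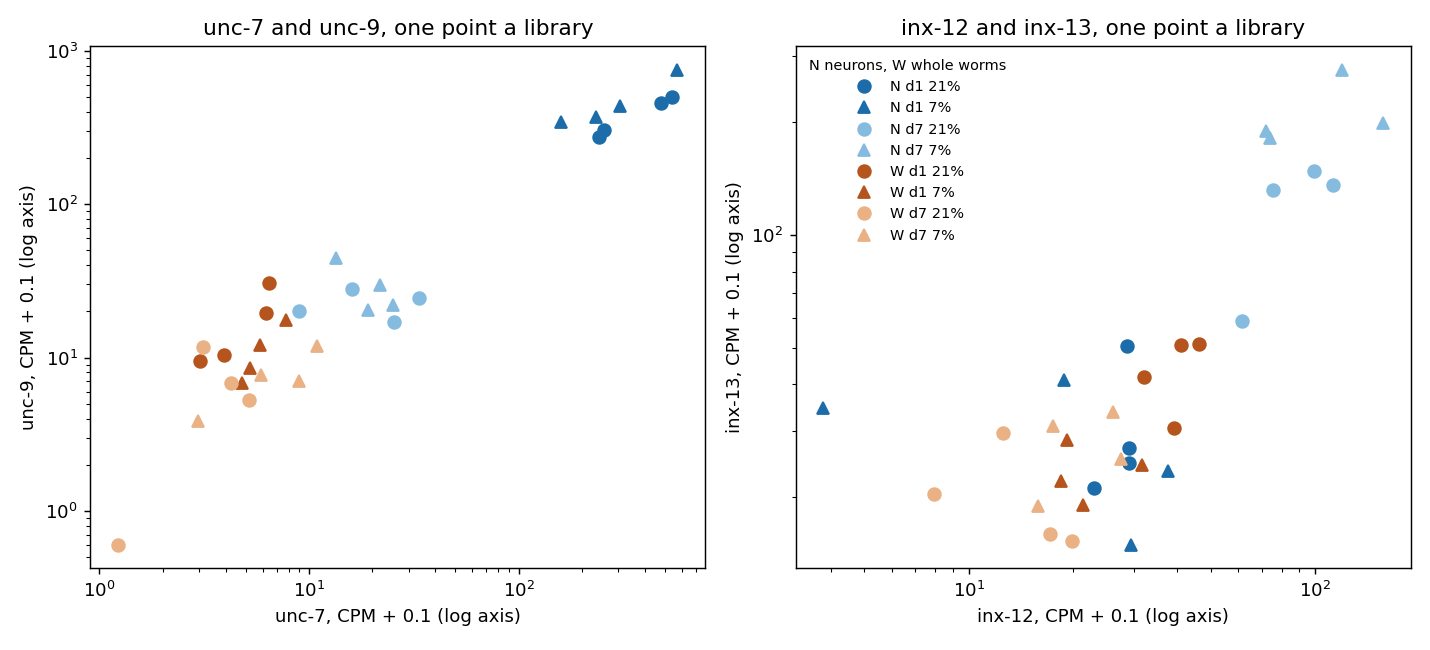
CPM + 0.1 on log axes for unc-7 against unc-9 (left) and inx-12 against inx-13 (right), with 1 point per library, coloured by group. unc-7 and unc-9 rose and fell together over the 32 libraries, with a correlation of 0.956, and inx-12 and inx-13 with 0.778.

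Over the 32 libraries the log2 CPM of unc-7 and unc-9 correlated at 0.956, at 0.960 within the 16 neuron libraries and at 0.717 within the 16 whole-worm libraries. For the neighbouring genes inx-12 and inx-13 the correlations were 0.778, 0.737 and 0.628. The libraries share their group structure, so these are descriptions of the pattern and not tests. Among 13327 genes with enough counts, those with the pattern most like that of unc-7 were tax-6 (r = 0.969), unc-80 (0.967) and camt-1 (0.966). For unc-9 they were kin-2 (0.963), cca-1 (0.962) and tax-6 (0.961). For inx-12 they were efn-2 (0.887), vha-8 (0.857) and ZC513.7 (0.837), and for inx-13 fln-2 (0.911), dex-1 (0.911) and pdi-2 (0.907). The nearest genes were less close for inx-2 (spp-10, 0.880), inx-14 (Y14H12B.1, 0.886), inx-3 (F58A4.2, 0.843), inx-7 (C37A2.8, 0.822) and inx-10 (K02D7.1, 0.711).

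inx-3, which is expressed in pharynx, epidermis and the embryo among other tissues, was lower in sorted neurons than in whole worms in all 4 comparisons. In day 1 neurons at 21% O2 it was at 3.91, 31, 11.7 and 12.9 CPM, against 64, 128, 112 and 183 CPM in whole worms. At 7% O2 the day 1 neurons had 43.3, 25.1, 5.98 and 31.7 CPM, against 49.9, 131, 59.6 and 74.5 CPM. No neuron library of day 1 reached its whole-worm group. inx-3 was 7.34-fold lower at 21% O2 (log2 -2.87 ± 0.56, edgeR adjusted p = 0.00159) and 2.80-fold lower at 7% O2 (log2 -1.48 ± 0.56, edgeR adjusted p = 0.061). On day 7 it was lower by 1.37 at 21% O2 (log2 -1.37 ± 0.58, edgeR adjusted p = 0.0962), where 1 neuron library, at 50.5 CPM, overlapped with whole worms at 49.7 to 83.1 CPM. At 7% O2 it was lower without overlap (log2 -1.60 ± 0.47, edgeR adjusted p = 0.0184). The call on day 1 at 7% O2 was lost without whole-worm replicate 2 or 4 (adjusted p = 0.208 and 0.106) or neuron replicate 2 (0.103). Without neuron replicate 2 the log2 difference on day 1 at 21% O2 was -3.52 (edgeR adjusted p = 0.000352) and that on day 7 at 7% O2 was -2.34 (edgeR adjusted p = 8.7e-05). The call on day 7 at 21% O2 was lost without any 1 of the whole-worm replicates 1 to 4 (adjusted p = 0.176, 0.124, 0.204 and 0.148) and without neuron replicate 3 (0.167), while without neuron replicate 1 the difference was -1.97 (edgeR adjusted p = 0.0288).

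inx-14 acts in the germ line, where its channels with those of the sheath join germ cells to the somatic gonad. It was at 1.17 to 20.1 CPM in day 1 neurons and at 0.396 to 15.2 CPM in day 7 neurons, against 26.4 to 55.4 CPM in all 16 whole-worm libraries. Neurons and whole worms did not overlap in any of the 4 comparisons. The log2 differences were -1.71 ± 0.47 on day 1 at 21% O2 (edgeR adjusted p = 0.0109), -1.83 ± 0.71 at 7% O2 (0.0669), -3.25 ± 0.71 on day 7 at 21% O2 (0.00578) and -2.27 ± 0.45 at 7% O2 (0.00214). All 9 germline markers were also lower in neurons in each comparison, with a median of -2.90 on day 1 at 21% O2. The call of inx-14 on day 1 at 7% O2 was lost without whole-worm replicate 1, 2 or 3 (adjusted p = 0.114, 0.150 and 0.122) or neuron replicate 3 (0.118). Without neuron replicate 3 on day 7 at 21% O2 its log2 difference was -3.85.

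inx-2 was lower in neurons in 3 of the 4 comparisons. On day 1 at 21% O2 it was at 0.273, 18.3, 5.15 and 4.78 CPM in neurons and at 40.2, 39.8, 28 and 53.3 CPM in whole worms (log2 -2.35 ± 0.83, edgeR adjusted p = 0.0367). Without neuron replicate 2, the highest of that group, the log2 difference was -3.41 (edgeR adjusted p = 0.00542). On day 7 it was lower by 1.36 at 21% O2 (log2 -1.36 ± 0.46, edgeR adjusted p = 0.0418) and by 1.44 at 7% O2 (log2 -1.44 ± 0.64, edgeR adjusted p = 0.094). On day 1 at 7% O2 its neuron libraries stood at 57.0, 1.11, 4.73 and 14.9 CPM and it was not called (log2 -0.51 ± 0.97). The highest of these is replicate 1, the library with high muscle markers, and without it inx-2 was called lower there too (log2 -2.02, edgeR adjusted p = 0.0891). On day 7 at 21% O2 the call was lost without whole-worm replicate 3 or 4 (adjusted p = 0.111 and 0.106). At 7% O2 it was lost without any 1 of whole-worm replicates 1 to 4 (0.212, 0.112, 0.153 and 0.176) and neuron replicates 1, 2 and 4 (0.145, 0.135 and 0.181), and without neuron replicate 3 the log2 difference was -2.18 (edgeR adjusted p = 0.0119).

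inx-7 and inx-10 varied widely between neuron libraries. inx-7 was at 68.1, 5.53, 36.1 and 2.5 CPM in day 1 neurons at 7% O2 and at 1.2, 22.2, 0.280 and 16.1 CPM in day 7 neurons at 7% O2. It was not called between sample types in any comparison, with log2 differences of 0.73 ± 0.42, 0.69 ± 0.87, -0.62 ± 0.63 and -1.25 ± 0.96. Without neuron replicate 1 on day 7 at 21% O2, which stood at 55.3 CPM, it was called lower (log2 -1.74, edgeR adjusted p = 0.0142). inx-10 was called higher in neurons on day 1 at 7% O2 (log2 2.48 ± 1.0, edgeR adjusted p = 0.0763), where its neuron libraries stood at 6.66, 2.54, 2.78 and 37.9 CPM and overlapped with whole worms at 1.17 to 2.95 CPM. That call rested on neuron replicate 4, without which the log2 difference was 0.83 (edgeR adjusted p = 0.426). With the replicate number as a block it was lost as well (log2 1.56, edgeR adjusted p = 0.288). It was also lost without any 1 of whole-worm replicates 1 to 4 (adjusted p = 0.147, 0.133, 0.185 and 0.152).

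With age, inx-2, inx-3, inx-7, inx-10 and inx-14 were not called in neurons at either O2, and the standard errors of these log2 changes, 0.80 to 1.45, would hide changes of a few fold. In whole worms at 21% O2, 1 of the 9 tested genes was called higher on day 7 and 4 lower, beside 7.92% and 10.7% of all genes tested. inx-7 was the gene that rose, from 24.4, 17, 15.5 and 17.7 CPM to 25.9, 30.6, 33.2 and 41.7 CPM, without overlap (log2 0.87 ± 0.23, edgeR adjusted p = 0.0113). Beside inx-12 and inx-13, inx-3 and unc-9 fell. inx-3 went from 64, 128, 112 and 183 CPM to 71.2, 49.7, 83.1 and 59.1 CPM (log2 -0.83 ± 0.28, edgeR adjusted p = 0.0522), and its groups overlapped. unc-9 went from 10.3, 9.46, 30.6 and 19.5 CPM to 6.77, 5.19, 11.6 and 0.503 CPM (log2 -1.47 ± 0.58, edgeR adjusted p = 0.0895), again with overlap. inx-14 was higher on day 7 by 0.50 ± 0.19 without overlap and below the 1.5-fold limit (edgeR adjusted p = 0.0694).

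All 7 body wall muscle markers fell with age in whole worms at each O2, with a median log2 change of -2.23 at 21% O2 and -1.21 at 7% O2, and their sum fell from 5795 to 9656 CPM to 831 to 1988 CPM at 21% O2. The part of muscle RNA in the fall of unc-9 was not tested. The call of unc-9 was lost without day 1 replicate 3 or 4 (adjusted p = 0.266 and 0.160) or day 7 replicate 1, 2 or 4 (0.133, 0.175 and 0.130), and without day 1 replicate 3 its log2 change was -1.07. With the replicate number as a block it was lost too (0.106). That of inx-3 was lost without day 1 replicate 4 (0.164) or day 7 replicate 2 or 4 (0.132 and 0.131). Without day 7 replicate 3, inx-10 was called lower (log2 -1.91, edgeR adjusted p = 0.0856). In a single model over all 32 libraries only inx-12 kept its call here, and inx-13, unc-9, inx-3 and inx-7 had adjusted p of 0.110, 0.122, 0.730 and 0.919.

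At 7% O2 none of the 9 tested genes was called in whole worms between day 1 and day 7 by edgeR, beside 7.49% higher and 8.36% lower of all genes tested. None had an unadjusted p under 0.05, and DESeq2 called none, beside 1983 of the 10894 genes tested. The log2 changes ran from -0.54 ± 0.57 for unc-9 to 0.34 ± 0.23 for inx-7. The difference in the change with age between 21% and 7% O2 was itself tested, and edgeR called 0 of the 9 genes, beside 0.211% of all genes tested. 2 had an unadjusted p under 0.05, and DESeq2 called the same 2, inx-12 and inx-13, beside 298 of the 10894 genes tested. For inx-12 the difference was -1.36 ± 0.38 (edgeR adjusted p = 0.156, DESeq2 adjusted p = 0.041), and for inx-13 it was -1.27 ± 0.34 (edgeR adjusted p = 0.142). Without day 1 replicate 1 at 21% O2, edgeR called both (adjusted p = 0.0921 for inx-12 and 0.0412 for inx-13). edgeR also called both without the low-count filter (adjusted p = 0.0265 for inx-12 and 0.0293 for inx-13) and with the replicate number as a block (0.0522 and 0.0579).

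The comparison of 21% with 7% O2 asks whether the rearing O2 changed the innexin RNAs of worms of 1 age. In neurons edgeR called 0 of 9 tested genes on day 1, beside 0.0939% of all genes tested, and 0 of 9 on day 7, beside 0.154%. None had an unadjusted p under 0.05 at either age. DESeq2 called none of the 9, beside 193 of the 11720 genes tested on day 1 and 184 on day 7. On day 1 the log2 differences ran from -1.46 ± 1.11 for inx-2 to 0.28 ± 0.51 for inx-12, with unc-7 at 0.24 ± 0.43 and unc-9 at -0.32 ± 0.33. On day 7 they ran from -1.0 ± 0.99 for inx-14 to 1.08 ± 1.08 for inx-7, with unc-7 at 0.08 ± 0.43 and unc-9 at -0.38 ± 0.33. inx-13 had lower values in all 4 day 7 neuron libraries of 21% O2 than in all 4 of 7% O2, by 0.83 ± 0.41 on the log2 scale, and did not pass the test (edgeR adjusted p = 0.715). For the difference in the change with age between O2 levels in neurons, edgeR called 0 of 9 genes, beside 0.0597% of all genes tested. These differences ran from -0.94 ± 0.57 for inx-13 to 1.57 ± 1.55 for inx-2 on the log2 scale. Their standard errors, 0.47 for unc-9 to 2.02 for inx-10, would hide differences of a few fold in some genes. None of the 9 had an unadjusted p under 0.05. DESeq2 called none of them, beside 121 of the 11720 genes tested.

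In whole worms edgeR called 0 of 9 genes between O2 levels on day 1, beside 0.00918% of all genes tested, with 2 at an unadjusted p under 0.05, inx-12 and inx-13. inx-12 was at 39.1, 31.9, 40.7 and 46.2 CPM at 21% O2 and at 21.2, 18.4, 31.6 and 19.1 CPM at 7% O2 (log2 0.76 ± 0.27, edgeR adjusted p = 0.267). inx-13 was at 30.5, 41.8, 50.7 and 51.0 CPM and at 19, 22, 24.2 and 28.3 CPM (log2 0.85 ± 0.24, edgeR adjusted p = 0.193). Neither gene's groups overlapped. DESeq2 called 1 of the 9, inx-13, beside 216 of the 10894 genes tested. edgeR called inx-13 with the replicate number as a block (log2 0.84, adjusted p = 0.0836), without the low-count filter (log2 0.87, adjusted p = 0.0503) and without replicate 1 of 21% O2 (log2 1.02, adjusted p = 0.0368). It called inx-3 without the low-count filter (log2 0.60, adjusted p = 0.0895) and without replicate 2 of 7% O2 (log2 0.96, adjusted p = 0.0889). On day 7 edgeR called 0 of 9, beside 0.0551% of all genes tested, with 3 at an unadjusted p under 0.05. These were unc-7 (log2 -1.09 ± 0.48, edgeR adjusted p = 0.821), inx-7 (0.49 ± 0.23, 0.844) and inx-12 (-0.60 ± 0.27, 0.844). The sign for inx-12 is opposite to that on day 1. DESeq2 called 0 of the 9 there, beside 39 of the 10894 genes tested.

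Of the other 15 innexins, 13, 10, 9 and 10 were tested between sample types on day 1 at 21% and 7% O2 and day 7 at 21% and 7% O2. Of these 3, 2, 3 and 2 were called higher in neurons, beside 30.0%, 26.8%, 23.5% and 24.7% of all genes tested, and 5, 4, 1 and 1 lower, beside 22.8%, 19.5%, 16.8% and 21.1%. The 5 and 4 called lower on day 1 include inx-15 and inx-16, which were at or near 0 in day 1 neurons. inx-1 was called higher in all 4. In day 1 neurons inx-1 was at 413, 289, 362 and 251 CPM at 21% O2 and at 178, 560, 294 and 446 CPM at 7% O2, and in day 7 neurons it was at 5.29 to 55.3 CPM. It fell with age in neurons by 3.65 at 21% O2 (edgeR adjusted p = 8.36e-05) and by 3.70 at 7% O2 (edgeR adjusted p = 5e-05) on the log2 scale. che-7, an innexin of sensory neurons, also fell with age in neurons, with log2 changes of -3.90 ± 0.83 and -4.77 ± 0.87. In all, 3 of 10 tested other innexins fell with age in neurons at each O2, beside 18% of all genes tested at 21% O2 and 21.0% at 7% O2. None rose, beside 12.1% and 15.4%.

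inx-5 was the other innexin called higher in day 7 neurons than in whole worms at each O2, by 3.15 ± 0.78 and 2.01 ± 0.40 on the log2 scale, and it was called lower in neurons on day 1 at 21% O2 (log2 -1.0 ± 0.39). In whole worms at 21% O2 it fell with age (log2 -2.51 ± 0.33, edgeR adjusted p = 2.49e-05). inx-16, which spreads calcium waves through the intestine, was at 0 to 0.217 CPM in day 1 neurons and at 2.00 to 11.7 CPM in day 1 whole worms, and was called lower in neurons on day 1. inx-15 was at 0 in all 8 libraries of day 1 neurons and at 2.84 to 6.25 CPM in day 1 whole worms, and was likewise called lower. On day 1 inx-15 and inx-16 entered the test only through the whole worms where they are counted, so nothing is read from these calls. In day 7 neurons inx-15 was at 0 to 20.8 CPM and was not called against whole worms. eat-5 had too few counts to be tested in any comparison, with no library above 0.743 CPM. inx-22, a germline partner of inx-14, was called lower in neurons on day 1 at each O2 and on day 7 at 7% O2, as inx-14 was. On day 7 at 21% O2 its neuron replicate 4 stood at 113 CPM, against 1.17 to 4.63 CPM in the other 3, and this is the library with the high germline markers. inx-8, an innexin of the gonadal sheath, fell with age in whole worms at each O2 (log2 -0.71 ± 0.22 and -0.80 ± 0.22). In whole worms 4 of 12 tested other innexins fell with age at 21% O2, beside 10.7% of all genes tested, and 1 of 12 at 7% O2, beside 8.36%. None rose at either, beside 7.92% and 7.49%.

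Of 4 genes whose proteins act on gap junctions or at cell junctions, unc-1 encodes a stomatin-like protein that acts on UNC-9 junctions. unc-1 was called higher in neurons on day 1 at each O2, by 4.19 ± 0.29 and 5.03 ± 0.42 on the log2 scale. In neurons it fell with age by 3.90 at 21% O2 (log2 -3.90 ± 0.90, edgeR adjusted p = 0.00347) and by 3.69 at 7% O2 (log2 -3.69 ± 0.89, edgeR adjusted p = 0.00386), as unc-9 did. unc-24, which encodes another stomatin-like protein, and nlr-1, a relative of Caspr proteins, were also called higher in day 1 neurons at each O2. Between sample types 3 of 4, 4 of 4, 2 of 4 and 1 of 3 tested were called higher in neurons. In order these are day 1 at 21% and 7% O2 and day 7 at 21% and 7% O2, beside 30.0%, 26.8%, 23.5% and 24.7%. On day 7 they were nlr-1 and unc-24 at 21% O2 and unc-1 at 7% O2. None was called lower, beside 22.8%, 19.5%, 16.8% and 21.1%. zoo-1, the ZO-1 relative, was called higher in neurons on day 1 at 7% O2 only. With age in neurons, 2 of the 4 were called lower at each O2, beside 18% and 21.0% of all genes tested. These were unc-1 and zoo-1 at 21% O2 and unc-1 and unc-24 at 7% O2. None rose, beside 12.1% and 15.4%. In whole worms 3 of 3 tested, nlr-1, unc-1 and zoo-1, fell with age at 21% O2, beside 10.7%. At 7% O2 none was called in whole worms, beside 8.36% lower and 7.49% higher.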

How the data were processed

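RNA was measured in 32 libraries, 4 biological replicates in each of 8 groups, and groups were taken from the sample labels. The deposited values are whole-number counts of sequenced fragments per gene, a read pair counting once. Per the authors' methods and processing notes, reads amplified as cDNA with an Ovation kit were trimmed with Cutadapt 1.9, aligned with STAR 2.5.2b and, once genes of rRNA biotype had been taken out, counted without strand by featureCounts 1.5.1. DESeq2 was the authors' test. No normalisation had been applied to the counts.

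Here the counts were fitted with edgeR 4.0.16 (R 4.3.3, limma 3.58.1), with TMM normalisation, filterByExpr at a minimum count of 10, glmQLFit with robust estimation and glmQLFTest. Sample types were compared over 8 libraries, O2, age and their interaction over the 16 libraries of a sample type, and sample type by age over all 32. A call needed at least a 1.5-fold change with its p, adjusted by Benjamini-Hochberg over all genes tested, under 0.1. Standard errors are the log2 fold change divided by the square root of the test's F. The labels number the replicates of each group and do not say that a number links groups. Whole-worm RNA was taken from dissociated suspensions before sorting, but the labels do not tie a suspension to a neuron library. No 2 replicates of a group agreed within sampling noise. The fits were checked on simulated data with known changes. There the fit of age in neurons missed many large differences, and that of age in whole worms made more false calls than the nominal share. A first criterion on the share recovered was not met and was replaced by one on signs, fold error and false calls. Ratios to neuronal markers were compared by exact permutation.

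The 10 genes, the other innexins, the junction genes and the marker lists were chosen with earlier results of these data known. Every one of the 10 genes is described. Other innexins and junction genes are counted in each comparison between types or ages and named in part, and the 3 genes most like each of the 10 by correlation of log2 CPM (prior count 2) over 32 libraries are the nearest genes. Exon positions come from WBcel235, annotation release 115, which holds 46427 of the 46726 gene IDs. Sequences were not used here. Alternatives were DESeq2 1.42.0, RLE size factors, other filters and thresholds, a model over all 32 libraries or over only the groups compared, a replicate block, leaving out F31C3.14 and leaving out each library. Leaving out both libraries least like their groups and setting unc-7 and unc-9 against neuronal markers were added after the data were seen.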

Additional observations from a re-analysis of the deposited data

Results flagged for a closer look

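In 7 of 80 groups of 4 libraries, 1 library stood far from the other 3, where chance gives about 1 in 20 for normally distributed values. That rate was not measured for counts as low as some of these, and 2 of the 80 groups were at 0 throughout. In neurons of day 7 at 7% O2, inx-3 was at 53.2 CPM in replicate 2 and at 13 to 14.6 CPM in the others. In neurons of day 7 at 21% O2, inx-7 was at 55.3 CPM in replicate 1 and at 8.37 to 11.9 CPM in the others, and inx-10 at 18.6 CPM in replicate 2 and at 0 to 1.87 CPM in the others. In neurons of day 1 at 7% O2, inx-10 was at 37.9 CPM in replicate 4 and at 2.54 to 6.66 CPM in the others. In neurons of day 1 at 21% O2, inx-12 was at 22.8 CPM in replicate 2, below the 28.4 to 29.0 CPM of the others. In whole worms of day 7 at 7% O2, inx-14 was at 55.4 CPM in replicate 4 and at 37.3 to 39.0 CPM in the others. In whole worms of day 1 at 21% O2, inx-19 was at 1.27 CPM in replicate 3 and at 0 to 0.197 CPM in the others.

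For 4 genes the change with age differed between neurons and whole worms by edgeR's test of that difference. The log2 change in neurons minus that in whole worms was -3.66 for unc-7, -2.57 for unc-9, 3.1 for inx-12 and 3.05 for inx-13 at 21% O2. At 7% O2 it was -4.30 for unc-7, -3.48 for unc-9, 2.30 for inx-12 and 2.68 for inx-13. The summed pan-neuronal markers were lower in day 7 than in day 1 neurons at each O2, without overlap. The summed epidermal markers were higher on day 7 at 7% O2, without overlap, and overlapped at 21% O2, at 108 to 320 CPM on day 1 and 316 to 445 CPM on day 7. The part of either was not tested.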

How the results depend on the processing

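In sorted neurons with age, unc-7, unc-9, inx-12 and inx-13 kept direction and call under every setting run, as they did in sample type by age. With RLE in place of TMM the log2 changes of the tested genes moved by -0.18 to 0.37 and no call changed. The number of genes called on day 1 at 7% O2 between sample types fell from 5 to 2 at an adjusted p under 0.05. Between O2 levels in day 1 whole worms it went from 0 to 1 with DESeq2, 2 without a low-count filter and 1 with a replicate block. With age in whole worms at 21% O2 it went from 5 to 3 at an adjusted p under 0.05 and to 1 in the model over all 32 libraries. For age by O2 in whole worms it went from 0 to 2 with DESeq2, without a filter and with a replicate block. Leaving out 1 library at a time, these counts ran from 2 to 6, 0 to 1, 3 to 6 and 0 to 2. The other counts so obtained were 5 to 6 and 5 to 7 between sample types on day 1 at 21% O2 and on day 7, 4 to 5 for age in neurons and sample type by age, and 0 elsewhere. Where age in neurons at 7% O2 gave 5, the added gene was inx-19, and so it was for sample type by age at 7% O2. Since inx-19 is at 0 in all day 7 neuron libraries and entered only through groups where it is counted, nothing is read from these calls. Sample type by age at 21% O2 gained inx-3 without neuron replicate 2 of day 1 or of day 7 (adjusted p = 0.0586 and 0.0814). The cause of these changes was not tested. Without both libraries least like their groups, inx-2 was called lower on day 1 at 7% O2 (log2 -2.02). In the model over all 32 libraries inx-10 on day 1 at 7% O2 and inx-2 on day 7 at 21% and 7% O2 were no longer called between sample types (adjusted p = 0.112, 0.202 and 0.192). With F31C3.14 left out, inx-2 also lost its call on day 7 at 7% O2 (log2 -1.37, edgeR adjusted p = 0.1115). No gene's called change reversed.

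Same-numbered replicates deviated together at correlations of -0.26 to 0.52, and in none of 12 comparisons did all 4 pairs exceed 0.1, so the numbers were not taken as pairs. With the replicate block the counts were otherwise 5, 4, 7 and 7 between sample types, 4 at each O2 for age in neurons, 4 for age in whole worms at 21% O2 and 4 at each O2 for sample type by age. Each library was most like its own number only between sample types on day 1 at 21% O2, where the block kept the call of inx-2 with a larger difference. Low counts limit inx-19 and inx-10, and the spread between sorted libraries limits what could be called in neurons.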
